A study of Mus musculus with 13 samples.

Results

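CD45+ cells from CT26 tumors that had received fractionated radiotherapy (RT), 2 Gy × 5, were compared with CD45+ cells from unirradiated tumors (0 Gy) at T21, the progression phase, day 21 from the start of RT. The comparison took the 2 Gy × 5 and 0 Gy samples of that phase, 2 of 13 samples, both read in the same nCounter run. CT26 is a BALB/c colon carcinoma line, here grown subcutaneously in the flank of female BALB/c mice, and both arms differed only in local X-ray irradiation of the tumor as far as the labels say. The leukocytes were taken from dissociated tumors with magnetic beads, so each sample is a mixed immune population and not a single cell type. The other samples were a baseline, the same 2 arms at T2, T7 and T14, and an arm given a single dose of 7.5 Gy (7.5 Gy × 1) at each phase. No condition had more than 1 sample. The authors describe several mice per group for this assay, but whether a sample pooled them is not stated. Every difference below is therefore described without a test and has no replicate check. The intervals printed beside folds are 95% exact intervals of the ratio of raw counts and cover counting error only.

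RNA was read on an nCounter immunology panel, in which barcoded probes are counted without amplification. Of 547 immune genes on the panel, 415 had a mean raw count over the 13 samples above 13.1, the background set by the negative controls, and these kept genes are the ones described. The total count was 171345 in the 0 Gy sample and 241239 in the 2 Gy × 5 sample, within the range of 166307 to 675847 over all samples. A count was at background when it did not exceed the mean plus 2 SD of that sample's negative controls, 15.5 in the 0 Gy and 15.9 in the 2 Gy × 5 sample. By this measure 337 kept genes were above background in both samples, 47 in the 2 Gy × 5 sample alone, 6 in the 0 Gy sample alone and 25 in neither. Normalized counts are the deposited values, scaled to 14 housekeeping genes.

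Irradiated tumors are infiltrated by several waves of leukocytes. Neutrophils and monocytes enter through chemokine and adhesion receptors, and cells with suppressive function among them are called myeloid-derived suppressor cells (MDSC). DNA released or damaged by RT can engage sensors that induce type I interferons, and T and NK cells release interferon-gamma; both interferons induce antigen presentation genes and PD-L1, the ligand through which tumor and myeloid cells restrain T cells carrying PD-1. Regrowth after RT is the phase compared here.

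Ptprc, which encodes CD45, the antigen used to isolate the cells, was itself unequal. Its raw count was 148 in the 0 Gy sample, 593 in the 2 Gy × 5 sample and 273 in the 7.5 Gy × 1 sample of T21. The normalized counts were 199.6, 810.2 and 427, so Ptprc was 4.06-fold higher after 2 Gy × 5 than after 0 Gy (interval 3.38 to 4.89). The 0 Gy value was the lowest of all 13 samples, whose highest value was 1873 in the 2 Gy × 5 sample of T7, and the 2 Gy × 5 value ranked 8 from the lowest. Other genes carried by most leukocytes were higher too. Itgb2, the β2 integrin chain, had counts of 156 and 596, and Cd48, a leukocyte adhesion ligand, 38 and 134. Spn, which encodes the leukocyte sialoglycoprotein CD43, had 202 and 201. Of 8 kept pan-leukocyte genes 6 were at least 2-fold higher and none was lower, with a median log2 fold of 1.72. In bulk RNA, fewer leukocytes in the 0 Gy preparation and less of these transcripts per cell cannot be told apart.

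The panel as a whole was shifted upward after 2 Gy × 5. Of 415 kept genes 335 (80.7%) had a higher and 80 (19.3%) a lower normalized count, and the median log2 fold was 0.71. At least 2-fold higher were 146 genes (35.2%), of which 115 were above background in both samples, and 41 (9.88%) were at least 4-fold higher. At least 2-fold lower were 2 genes (0.482%), Fkbp5 and Cxcl12. The counting interval also excluded equality in 138 of the higher (33.3%) and 1 of the lower genes (0.241%). The scaling factors of both samples were nearly equal, so the shift is in the raw counts as well. The housekeeping genes had geometric means of 585 in the 0 Gy and 578 in the 2 Gy × 5 sample, and the positive controls 287 and 292. Single housekeeping genes ranged in log2 fold from -0.40 for Tbp to 0.80 for Alas1.

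**Figure D1:**
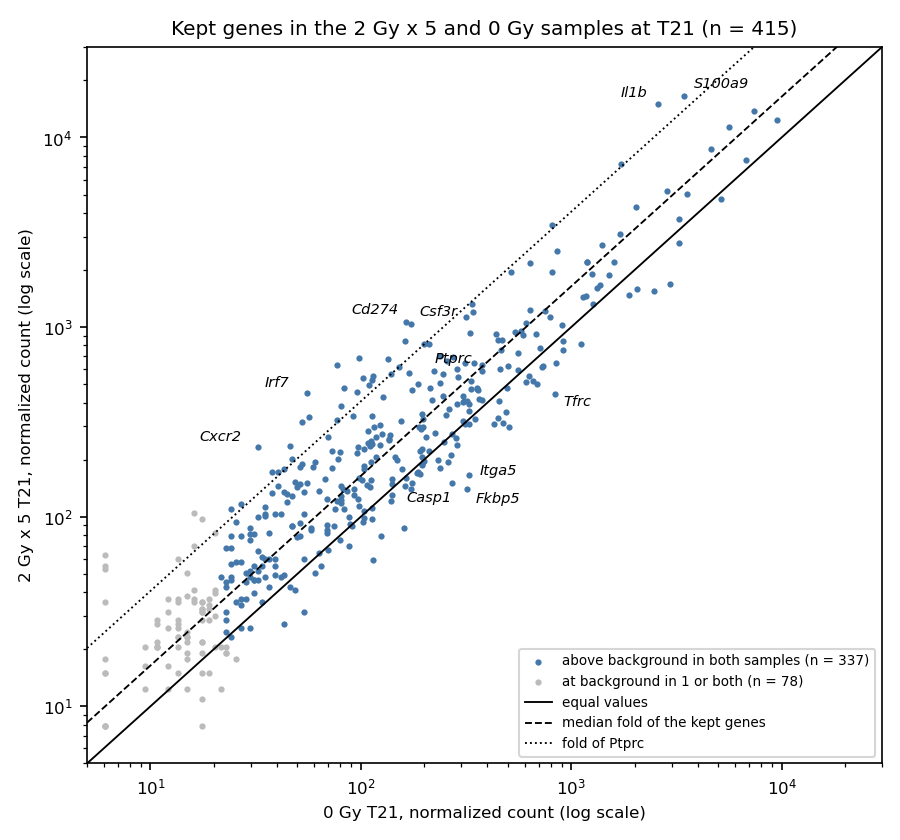
Normalized counts of the 415 kept genes in the 0 Gy (x axis) and the 2 Gy × 5 sample (y axis) of T21, both on log scales, 1 point per gene and 1 sample per axis. Most points lie above the line of equal values, around the dashed line of the median fold, while Cd274, Csf3r, Irf7 and Cxcr2 lie above the dotted line of Ptprc (4.06-fold) and Fkbp5, Itga5, Casp1 and Tfrc lie below the line of equal values.

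Since the panel moved together, folds were also taken with a median-of-ratios scaling over the kept genes, which sets the typical gene to no change. It moved every log2 fold by -0.72, leaving the median at -0.01, with 57 genes (13.7%) 2-fold or more higher and 32 (7.71%) lower. Genes with a log2 fold between 0 and that size turned to the other side, and so did 9 of 24 list medians: those of MHC class I and class II presentation, pattern recognition, NF-kB and TNF, inflammatory cytokines, IL-10 with STAT3 and TGF-beta, adhesion, CD45-negative cells, and autophagy with apoptosis and cell cycle. Ptprc then stood at 2.46-fold. When each value was taken relative to Ptprc instead, 276 genes (66.5%) were lower by 2-fold or more and 4 (0.964%) higher, among them Btk, Il15 and Cd53, which were at background in the 0 Gy sample. Of the 337 genes above background in both samples, 29 (8.61%) had a larger fold than Ptprc, and of the 24 list medians that of the neutrophil and MDSC list alone stayed above 0, at 0.04. A fold below is that of the deposited normalized counts. Every list median named below, except that of the neutrophil and MDSC list, is below 0 relative to Ptprc, and each count of list members is to be read against the 35.2% of all kept genes that were at least 2-fold higher.

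Neutrophil and MDSC genes had the highest median of the lists of kept genes. With the low-count filter lifted, the list median was 1.53 and the pan-leukocyte list, at 1.72, was higher. All 11 kept members were above background in both samples, 10 were at least 2-fold higher and none was lower. Their median log2 fold was 2.06 on the housekeeping scale and 1.34 with median of ratios, beside 0.71 and -0.01 over all kept genes, and 6 of the 11 exceeded the fold of Ptprc. Cxcr2, the receptor through which neutrophils follow CXC chemokines, had counts of 24 in the 0 Gy, 171 in the 2 Gy × 5 and 46 in the 7.5 Gy × 1 sample and was 7.22-fold higher after 2 Gy × 5 than after 0 Gy (interval 4.69 to 11.6). Csf3r, the G-CSF receptor gene, had 128, 758 and 253, a 6.0-fold difference (4.97 to 7.29), and Trem1, an amplifier of myeloid inflammation, had 62, 348 and 143. In each of these 3 genes the 7.5 Gy × 1 sample lay between the other samples of T21. The calgranulin genes S100a9 and S100a8, abundant in neutrophils and MDSC, had counts of 2538 and 12066, and of 1282 and 5284. These are folds of 4.82 (4.61 to 5.03) and 4.18 (3.93 to 4.44) in transcripts counted so often that the counting error is small. The only member under 2-fold was Cebpb, a transcription factor gene of myeloid differentiation, with counts of 2111 and 3831.

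Mediators and surface receptors of inflammatory myeloid cells were also among the 12 largest folds. Il1b, the gene of interleukin-1β, had counts of 1927 after 0 Gy, 11049 after 2 Gy × 5 and 5351 after 7.5 Gy × 1, a 5.81-fold difference between the first pair (5.53 to 6.10). Its normalized count of 15097 in the 2 Gy × 5 sample was the highest of all 13 samples. Cxcl3, a CXC chemokine that binds CXCR2, had 120, 621 and 259 counts, and its value after 2 Gy × 5 was likewise the highest of the 13. Ptafr, the receptor of platelet-activating factor, had 73, 504 and 174 (6.99-fold, 5.46 to 9.07). Bst1, a GPI-anchored ectoenzyme of myeloid cells, was 6.03-fold higher, and Entpd1, which encodes the ATP-degrading ectoenzyme CD39, 5.28-fold. Among cytokine and chemokine lists the typical member moved less. The inflammatory cytokine and receptor list had a median of 0.59, with 8 of 24 genes at least 2-fold higher, near the 35.2% of all kept genes, and -0.13 with median of ratios. The chemokine ligand list had a median of 0.75, and 0.03 with median of ratios, with 10 of 22 higher and 1, Cxcl12, lower. Tnf had counts of 190 and 483, Ccl3 471 and 1599 and Ccl4 252 and 876; all 3 are products of activated macrophages and lymphocytes. Il10, an anti-inflammatory cytokine gene, had 24 and 73 counts (3.08-fold, 1.92 to 5.11), while the IL-10, STAT3 and TGF-beta list had a median of 0.38, and -0.34 with median of ratios.

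Of the chemokine receptors 8 of 11 were at least 2-fold higher, with a median of 1.42, which was 0.70 with median of ratios and -0.60 relative to Ptprc. Only 7 of the 11 were above background in both samples, so not all 8 folds rest on 2 measured values. Ccr2, which guides monocytes out of the bone marrow, had counts of 35 and 147, a fold of 4.25. Ccr7, which directs dendritic cells and naive T cells to lymph nodes, was at background in the 0 Gy sample with 15 counts and had 60 after 2 Gy × 5, at least 3.92-fold higher. Cx3cr1, the fractalkine receptor gene, had 65 and 73. Complement genes formed a split list: C3, the central component, had 42 and 245 counts (5.91-fold, 4.25 to 8.41), and the proteases C1s1, Cfb and C1ra were 4.55-fold, 4.50-fold and 4.26-fold higher. The C1q chains C1qa and C1qb, products of macrophages, had log2 folds of 0.68 and 0.81, and the list median was 0.97, and 0.25 with median of ratios. On the housekeeping scale 6 of 14 genes were at least 2-fold higher, not far from the 35.2% of all kept genes. With median of ratios 5 of the 14 were, beside 13.7% of all kept genes. Of the 11 above background in both samples, 4 exceeded the fold of Ptprc, beside 8.61% of all such genes.

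Cd274, the gene of PD-L1, had counts of 121 in the 0 Gy, 774 in the 2 Gy × 5 and 273 in the 7.5 Gy × 1 sample. Its fold was 6.48 (5.34 to 7.91) between 2 Gy × 5 and 0 Gy, 3.93 with median of ratios and 1.60 relative to Ptprc. The 0 Gy value of 163.2 normalized counts was the lowest of 13, and the 2 Gy × 5 value of 1058 ranked 11, below the 1584 and 2235 of the irradiated samples of T7. The second PD-1 ligand, Pdcd1lg2, had 20 and 27 counts, a fold of 1.37 whose interval, 0.74 to 2.57, includes equality. Pdcd1, the gene of PD-1 itself, had 18 counts after 0 Gy, 35 after 2 Gy × 5 and 8 after 7.5 Gy × 1, where background was 7; the fold against 0 Gy was 1.97 (1.09 to 3.69). Other genes of T cell co-stimulation were also higher. Tnfsf14, the ligand LIGHT, had 30 and 106 counts, Cd86, a ligand of CD28, 45 and 143, and Cd40, a receptor of antigen-presenting cells, 19 and 42. Of 8 kept co-stimulatory and inhibitory ligand genes 5 were at least 2-fold higher, with a median of 1.13. Relative to Ptprc that median was -0.89, so the direction of the list differs between the scales.

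Type I interferon response genes had a median of 1.06, with 11 of 20 at least 2-fold higher, and interferon-gamma response genes a median of 1.02, with 9 of 18, beside 0.71 and 35.2% over all kept genes. With median of ratios the medians were 0.34 and 0.29. None of either list was 2-fold lower. Irf7, whose product drives the second wave of interferon-α and interferon-β transcription, had counts of 41, 327 and 161 in the 0 Gy sample, the 2 Gy × 5 sample and the 7.5 Gy × 1 sample, 8.08-fold higher after 2 Gy × 5 than after 0 Gy (5.83 to 11.5). Stat2, a subunit of the factor that carries the type I signal to the nucleus, was at background in the 0 Gy and in the 0 Gy T14 sample and had 44 counts after 2 Gy × 5, at least 2.87-fold higher. Ifitm1, an antiviral membrane protein gene, had 249, 964 and 641. Some genes around type I interferon differed less in value. Sting1, the adaptor of cytosolic DNA sensing, had 148 and 144 counts, and Tbk1, its kinase, 73 and 83. Ifnar1, a chain of the type I interferon receptor, had 339 and 439. Ifng itself was at background in both samples, with 8 and 15 counts. Psmb9 and Psmb10, inducible subunits of the immunoproteasome, were 2.09-fold and 2.24-fold higher, and Tap1 and Tapbp, which load peptides on MHC class I, 1.93-fold and 1.88-fold. With values taken relative to Ptprc the 2 list medians were -0.96 and -1.01.

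Interferon-regulated promoters often carry an interferon-stimulated response element, bound by the factor that contains STAT2 and by IRF proteins. The letters GAAANNGAAA, on either strand, were looked for in the 250 bases before the start of each gene in the RefSeq promoters of GRCm38.p6. They occurred in 936 of 27025 genes (3.46%), in 19 of the 308 kept genes that had an entry (6.17%) and in 10 of the 101 of these that were at least 2-fold higher (9.90%). Among the 17 genes of the 2 interferon lists that were at least 2-fold higher and had an entry, 4 held it. These 4 are shown as examples of the element. Cxcl10, Irgm1 and Bst2 were named for this match, after their values were seen. Stretches run 5′ to 3′ on the gene's strand with the match in capitals. The stretches are chr10:128270251-128270310 (plus strand) for Stat2, where the capitals are the motif read on the opposite strand, chr5:92349068-92349127 (minus) for Cxcl10, chr11:48871421-48871475 (minus) for Irgm1 and chr8:71537568-71537627 (minus) for Bst2. Irgm1 and Bst2 each have a further match that overlaps the one shown.
Stat2: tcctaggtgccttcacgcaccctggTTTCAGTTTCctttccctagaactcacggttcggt
Cxcl10: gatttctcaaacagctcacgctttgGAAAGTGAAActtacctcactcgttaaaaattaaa
Irgm1: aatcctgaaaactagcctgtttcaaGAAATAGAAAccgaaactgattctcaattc
Bst2: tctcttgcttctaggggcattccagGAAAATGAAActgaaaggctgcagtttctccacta
Cxcl10, a chemokine for activated T cells, had counts of 130 and 342 (2.66-fold). Irgm1, an interferon-induced GTPase, had 182 and 416 (2.32-fold), and Bst2, the antiviral protein tetherin, 325 and 676 (2.11-fold). All 3 folds were smaller than the 4.06-fold of Ptprc. A match is a stretch of letters and does not show binding, and its part in the folds was not tested.

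Monocyte and macrophage genes had a median of 1.09, with 8 of 15 at least 2-fold higher. That median was 0.37 with median of ratios and -0.93 relative to Ptprc. Cd14, the lipopolysaccharide co-receptor of monocytes, had counts of 598 and 2515 (4.26-fold, 3.90 to 4.67), and the Fc receptor gene Fcgr1 94 and 315. Csf1r, the receptor that maintains macrophages, had 176 and 369, Adgre1, which encodes F4/80, 101 and 189, and Cd163, a scavenger receptor of macrophages, 11 and 9, both at background. Dendritic cell genes were close to the panel, with a median of 0.82, 0.10 with median of ratios, and 4 of 10 higher beside 35.2% of all kept genes. Among the 4 was Irf8, a factor needed for conventional dendritic cells, which had 20 and 58 counts. Itgax, which encodes CD11c, had 146 and 239. MHC class II genes were near the panel median at 0.67, and at -0.06 with median of ratios: Cd74, the invariant chain, had 4175 and 8288 counts, H2-Eb1 1044 and 1978, H2-Ab1 228 and 293 and H2-Aa 92 and 58. Of the class II chains, H2-Aa was thus lower and H2-Eb1 higher after 2 Gy × 5.

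Lymphocyte genes were counted far less often. T cell receptor and proximal signaling genes had 5 of 18 members at least 2-fold higher and a median of 0.76, beside 0.71 over all kept genes and 0.04 with median of ratios, and 11 of the 18 were above background in both samples. Cd8a, the CD8 chain of cytotoxic T cells, had counts of 21, 27 and 8 in the 0 Gy sample, the 2 Gy × 5 sample and the 7.5 Gy × 1 sample, and Cd4 24, 38 and 26. Their folds against 0 Gy, 1.30 (0.71 to 2.42) and 1.60 (0.94 to 2.80), have intervals that include equality. Cd3e, a chain of the CD3 complex, had 11 and 28 counts, with the 0 Gy sample at background, and Cd3d 18 and 34. Lef1, a transcription factor of naive and early T cells, had 40 and 23. Cytotoxic and NK cell genes had a median of 1.10, with 9 of 13 at least 2-fold higher, but 5 of the 13 were above background in both samples. The median was 0.38 with median of ratios and -0.92 relative to Ptprc. Gzmb, the granzyme B gene, had 54, 133 and 62 counts (2.50-fold, 1.81 to 3.49). The best counted of them, Tyrobp, with 634 and 1833 counts, encodes an adaptor that myeloid cells share with NK cells. Treg and checkpoint receptor genes had a median of 0.91, with Ctla4 at 22 and 64 counts, Foxp3 at background in both, and Tigit at 47 in each. Of the B cell list, Btk, a kinase also used by myeloid cells, had 6 and 46 counts (at least 3.0-fold higher), whereas Ms4a1, which encodes CD20, had 17 and 15.

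Genes at background in the 0 Gy sample give bounds only. Besides Ccr7, Btk and Stat2, the highest bounds were at least 5.03-fold for Ptger4, a prostaglandin E2 receptor gene, with 12 and 77 counts, and at least 3.33-fold for Slamf7, a receptor of NK and activated cells, with 12 and 51. A probe whose identifier, NM_010846.1, had no match to a gene name had 13 and 71 counts, at least 4.64-fold higher.

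Few genes were lower after 2 Gy × 5, and among those above background in both samples Fkbp5 alone reached a 2-fold difference. Fkbp5, a co-chaperone that is induced by glucocorticoids, had counts of 238, 103 and 108 in the 0 Gy sample, the 2 Gy × 5 sample and the 7.5 Gy × 1 sample. Its normalized counts were 321 after 0 Gy and 140.7 after 2 Gy × 5, a ratio of 0.44 (0.34 to 0.55), and the 0 Gy value was the highest of the 13 samples. Cxcl12, the stromal chemokine gene, had 13 and 7 counts, at background in both, so its listed fold carries no weight. The other lowest ratios belonged to Itga5, the fibronectin receptor chain, with 242 and 122 counts, Il1rl2, the IL-36 receptor, with 85 and 43, Tfrc, the transferrin receptor of growing cells, with 621 and 325, and Ikbkg, a subunit of the kinase complex that activates NF-κB, with 119 and 64. Casp1, the inflammasome protease, had 201 and 110, the tetraspanin gene Cd9 2176 and 1234, Cd109, a GPI-anchored surface protein gene, 374 and 217, and Cd34, a marker of progenitors and vascular endothelium, 1840 and 1131. Trp53, the p53 gene, had 630 and 473 counts, and Cdkn1a, its cell cycle inhibitor target, 885 and 1614. The autophagy, apoptosis and cell cycle list that holds them had the lowest list median, 0.09, and 1 of 14 genes, Fas, was at least 2-fold higher.

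Of the 9 kept genes of the CD45-negative cell list, 7 were above background in both samples. Whether their transcripts came from cells without CD45 was not tested. Of 9 kept genes of this list none was at least 2-fold higher and 1, Cxcl12, was 2-fold lower. The median was 0.36 on the housekeeping scale and -0.36 with median of ratios. Relative to Ptprc it was -1.66 and all 9 genes were at least 2-fold lower, beside 66.5% of all kept genes. Fn1, which encodes fibronectin, had 871 and 1073 counts, Pdgfrb, a pericyte and fibroblast receptor, 145 and 166, and Cdh5, the endothelial cadherin, 25 and 26. The summed normalized counts of the 9 genes were 3059 after 0 Gy, the lowest of the 13 samples, 4541 after 2 Gy × 5 and 3870 after 7.5 Gy × 1, with a highest value of 12693 elsewhere in the series. Tgfbi, a matrix protein gene that monocytes and macrophages also express, gave 1191 of the 0 Gy and 2193 of the 2 Gy × 5 sum. Without it the sums of the other 8 genes were 1868, 2348 and 2229 in the same order. The 0 Gy sample then ranked 3 from the lowest, and the 13 samples ranged from 1570 to 7974. Of these 8 genes Fn1 had the most counts in the 0 Gy and 2 Gy × 5 samples. Cd34, a marker of vascular endothelium outside the list, had a log2 fold of -0.68, whereas 8 of the 9 list genes had one above 0. The list holds no kept marker of tumor cells, and the part of CD45-negative cells in the Ptprc difference was not tested.

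**Figure D2:**
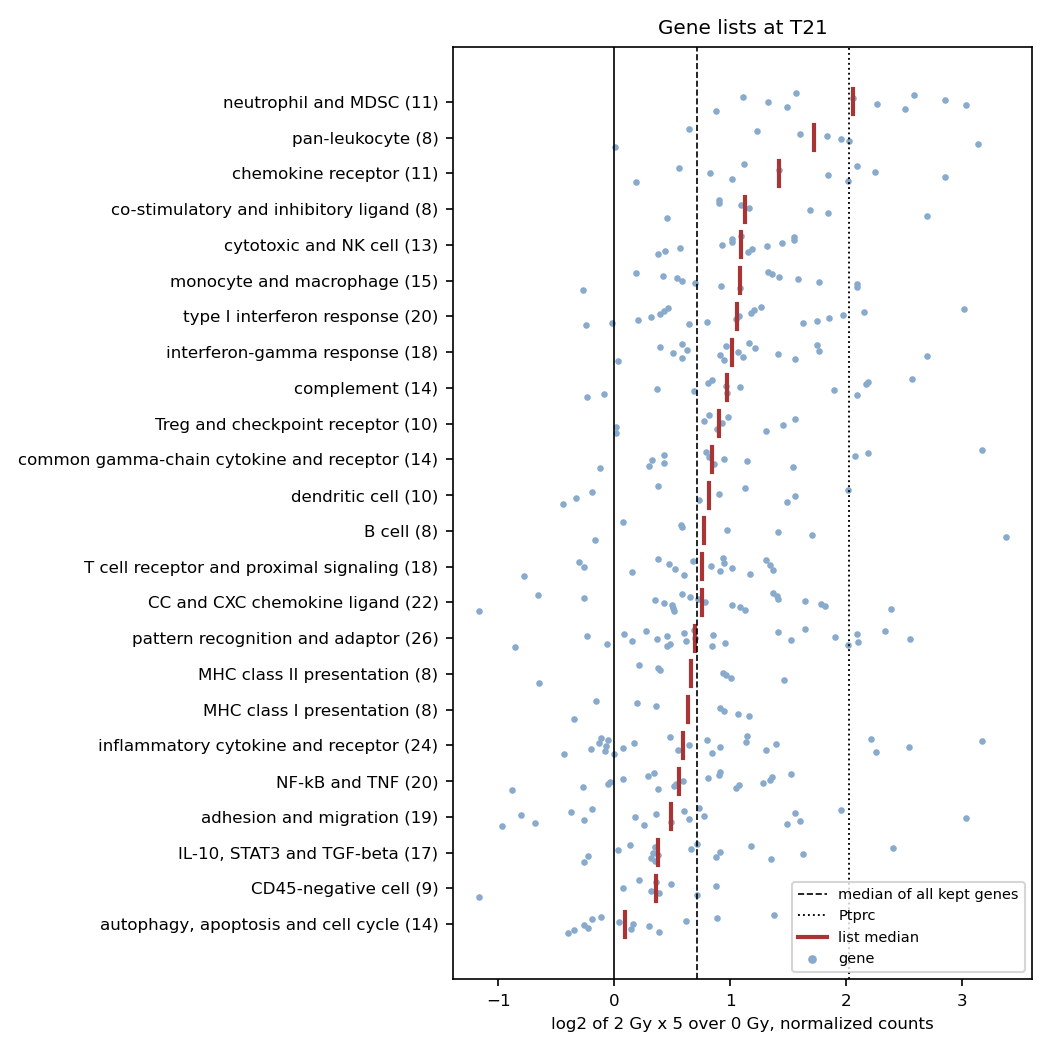
Log2 fold of 2 Gy × 5 over 0 Gy at T21 for the members (points) and the median (red bars) of 24 gene lists, with the number of kept members in brackets. Among kept genes the neutrophil and MDSC list has the highest median (2.06; 1.53, below the pan-leukocyte 1.72, without the low-count filter) and autophagy, apoptosis and cell cycle the lowest (0.09); the dashed line marks all kept genes (0.71) and the dotted line Ptprc (2.02).

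The position of both samples among all 13 was then examined, because a fold of 1 sample over 1 other depends equally on each. The 0 Gy sample had the lowest normalized count of the 13 in 118 kept genes (28.4%), and the 2 Gy × 5 sample had the highest in 30 (7.23%). Within the 5 samples of their run, the 0 Gy sample was lowest in 225 genes (54.2%) and the 2 Gy × 5 sample highest in 117 (28.2%). Over all kept genes, the median log2 distance from the median of the other 11 samples was -0.80 for 0 Gy and -0.01 for 2 Gy × 5. For the 146 genes counted as higher, which the comparison itself selects for a low 0 Gy or a high 2 Gy × 5 value, these distances were -1.48 and 0.20. In 78 of the 146 the 0 Gy value was the lowest of the 13. The 2 Gy × 5 value lay within the range of the other 11 samples in 136 of the 146 (93.2%) and in 370 of all kept genes (89.2%), shares that are close to each other. The 10 genes with the highest value in the 2 Gy × 5 sample include Il1b, Cxcl3, Ccl4 and C1s1.

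**Figure D3:**
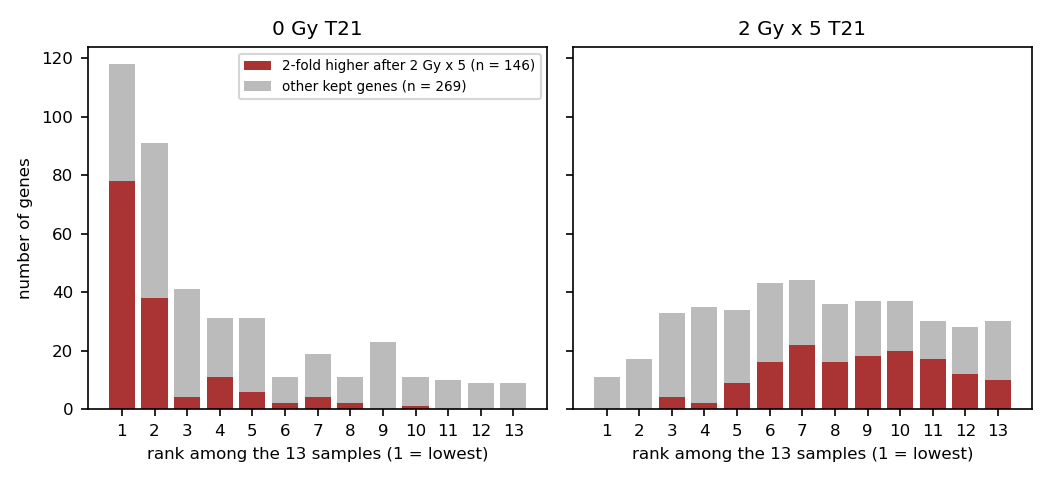
Rank of the 0 Gy T21 sample (left) and of the 2 Gy × 5 T21 sample (right) among the 13 samples, as number of kept genes at each rank, with the 146 genes at least 2-fold higher after 2 Gy × 5 in red and the other 269 in grey. The 0 Gy sample is at rank 1 in 118 genes, while the ranks of the 2 Gy × 5 sample are spread, with 30 genes at rank 13.

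The 0 Gy sample of T14, read in the same run, served as another unirradiated reference one phase earlier. Against it, the 0 Gy sample of T21 was lower by 2-fold or more in 156 kept genes (37.6%) and higher in 5 (1.2%), with a median log2 fold of -0.60. The 2 Gy × 5 sample of T21 was at least 2-fold higher than the 0 Gy sample of T14 in 33 genes (7.95%) and lower in 25 (6.02%), with a median of 0.13. Of the 146 genes, 104 were higher than in 0 Gy T14 and 25 (17.1%) at least 2-fold so, beside 7.95% of all kept genes. The 146 were selected partly for a high value in the same 2 Gy × 5 sample, which makes values above 0 Gy T14 likely. Irf7 was 4.48-fold, Cd274 3.83-fold, Il1b 2.76-fold, Cxcr2 2.76-fold, Csf3r 2.25-fold, C3 2.24-fold and S100a9 2.04-fold higher than in 0 Gy T14. Also among the 25, and named after their values were seen, were the interferon-induced RNA-binding gene Ifit2, with normalized counts of 76.4 in 0 Gy T14, 97.1 in 0 Gy T21 and 233.6 in 2 Gy × 5 T21, and the RNA sensor gene Ifih1, with 61.5, 59.4 and 183.1. For Ptprc the values were 633.1, 199.6 and 810.2. The typical gene of several lists did not lie above this reference: the median against 0 Gy T14 was -0.05 for pan-leukocyte, -0.65 for monocyte and macrophage and -1.23 for MHC class II genes, beside 0.63 for neutrophil and MDSC, 0.61 for interferon-gamma response and 0.45 for type I interferon response genes. Cd74, for example, had 18040 normalized counts in 0 Gy T14, 5631 in 0 Gy T21 and 11324 in 2 Gy × 5 T21. Phase and arm both differ in this reading, so the values are set side by side only.

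**Figure D4:**
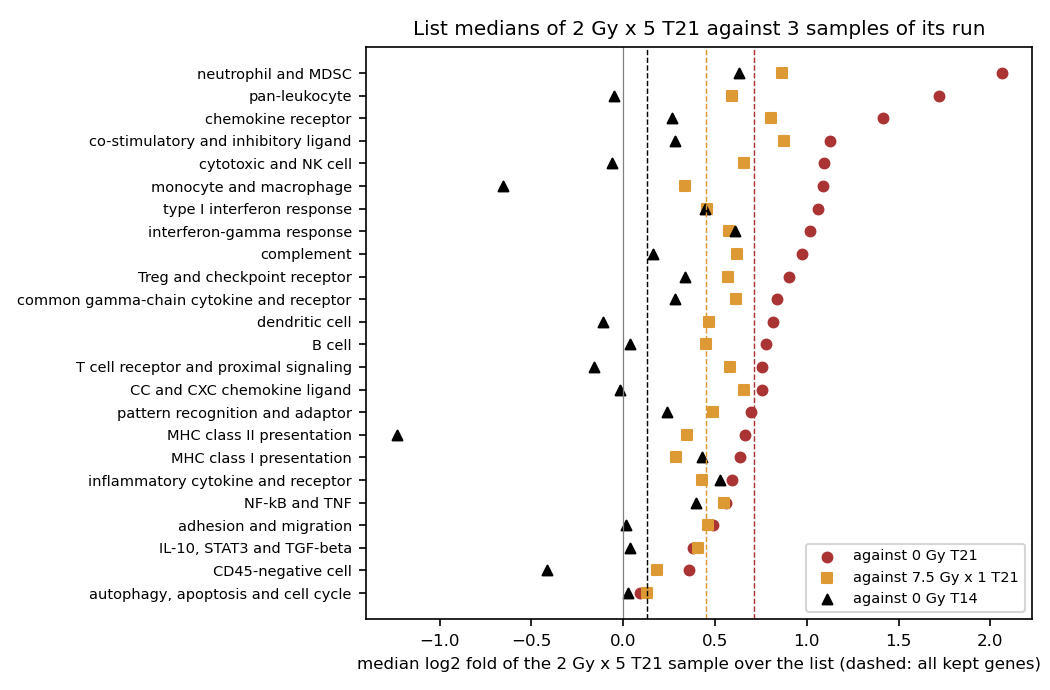
Median log2 fold of the 2 Gy × 5 T21 sample over each list, taken against 3 samples of its run, the 0 Gy T21 sample (circles), the 7.5 Gy × 1 T21 sample (squares) and the 0 Gy T14 sample (triangles), with dashed lines for all kept genes (0.71, 0.45 and 0.13). Against 0 Gy T14, MHC class II genes (-1.23) and monocyte and macrophage genes (-0.65) lie below 0 and neutrophil and MDSC genes (0.63) above it.

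The single-dose arm at T21 shares the 0 Gy sample, so the values of both regimens are given beside each other and their own ratio is taken directly. Against 0 Gy, 58 kept genes (14%) were at least 2-fold higher and 10 (2.41%) lower after 7.5 Gy × 1, with a median log2 fold of 0.21, where 2 Gy × 5 had 0.71. The 2 Gy × 5 sample was at least 2-fold above the 7.5 Gy × 1 sample in 77 genes (18.6%) and 2-fold below it in 0, with a median of 0.45. Cxcr2 was 3.25-fold, Csf3r 2.62-fold, Ptafr 2.53-fold and Cd274 2.48-fold higher after 2 Gy × 5 than after 7.5 Gy × 1. Ptprc was 1.90-fold higher. Pdcd1 was 3.82-fold higher on 35 and 8 counts, with an interval of 1.74 to 9.54 that contains the fold of Cd274. Ccr2, Fcgr1, Irf5 and C1s1 had smaller ratios, at 1.23-fold, 1.12-fold, 1.19-fold and 1.23-fold. Over all kept genes the 7.5 Gy × 1 value fell between those of 0 Gy and 2 Gy × 5 in 234 (56.4%) and exceeded 2 Gy × 5 in 71 (17.1%). Among the 146 genes, whose selection makes a value in between likely, these were 132 and 5. The regimens differ in dose per fraction, number of fractions, total dose and time from the last irradiation to T21, and these cannot be told apart.

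**Figure D5:**
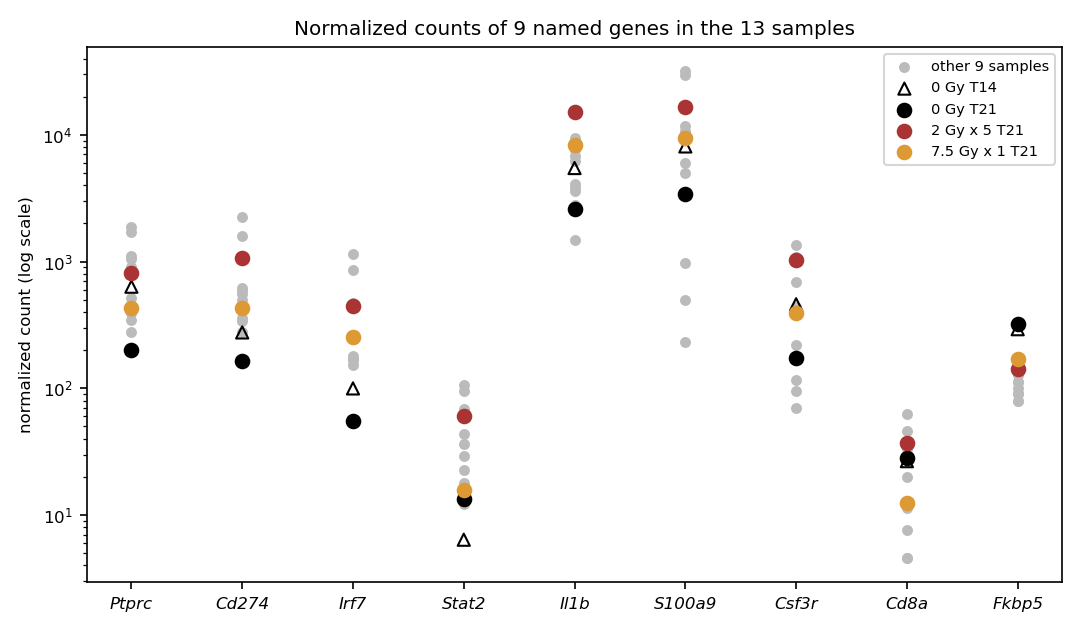
Normalized counts (log scale) of 9 named genes in all 13 samples, 1 point per sample, with the 3 samples of T21 and the 0 Gy sample of T14 marked and the other 9 in grey. Ptprc and Cd274 are lowest in the 0 Gy T21 sample, Il1b is highest in the 2 Gy × 5 T21 sample and Fkbp5 highest in the 0 Gy T21 sample.

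The contrast of 2 Gy × 5 with 0 Gy differed in size between phases. The median log2 fold over the kept genes was -0.01 at T2, 0.42 at T7, 0.35 at T14 and 0.71 at T21, with 11, 80, 66 and 146 genes higher by 2-fold or more and 23, 7, 27 and 2 lower. With median of ratios 15, 35, 44 and 57 genes were higher and 20, 21, 40 and 32 lower, so T21 no longer had the fewest lower genes. T2 was day 2 from the start of RT, and how many of the 5 fractions had been given by then is not stated. At T14 the arms were read in different runs. Ptprc moved in the same order of size, with log2 folds of -0.17, 0.77, 0.74 and 2.02, and its part in the other folds was not tested. Cd274 was above its 0 Gy partner at every phase, with log2 folds of 0.99, 1.67, 1.12 and 2.70. S100a8 had log2 folds of 2.04, 0.25, 2.03 and 2.06, and S100a9 2.38, 0.12, 1.97 and 2.27. The folds of these calgranulin genes at T2 and T14 were thus close to those at T21. Each phase uses its own pair of samples, and the difference between phases was not tested.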

How the data were processed

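Raw nCounter readings were deposited as 1 count per probe and sample. The authors also deposited a normalized signal for every probe, called the normalized count above. From the values, each sample was multiplied by 1 factor that sets the geometric mean of 14 housekeeping genes to 789, and anything lower than the geometric mean of the 8 negative controls was raised to it; this rebuilt 7111 values within 0.171%. The software is not given in the sources used here. Other scalings multiplied the deposited values by a further factor. RefSeq identifiers were matched to symbols for 549 of 561 genes, and the 12 others entered no list. Named genes were the 12 largest higher and 10 largest lower folds above background in both samples, up to 4 per list, the 6 highest bounds and 10 chosen genes; values of other list members are given for contrast and were chosen after they were seen. A few genes that meet this rule are not reported here. Members and lists were chosen with earlier results of these data known. The reading against the 0 Gy sample of T14 and the promoter motif were added after the values were seen. Of 25 lists, the one for mast cells, basophils and eosinophils had 0 kept genes. No test was run, as each side is 1 sample. Intervals (Clopper-Pearson on the paired counts) were checked on simulated counts. An "at least" fold sets the 0 Gy value at its background threshold. Python 3.11.15, numpy 2.4.6, pandas 2.3.3, scipy 1.17.1 and matplotlib 3.10.9 were used.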

Additional observations from a re-analysis of the deposited data

Results flagged for a closer look

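Cd4 lay on opposite sides of equality at T2 and T21, with log2 folds of 2 Gy × 5 over 0 Gy of -0.82 and 0.68, and the difference was not tested. It was counted rarely. At T21 it had 24 counts after 0 Gy and 38 after 2 Gy × 5, with an interval of 0.94 to 2.80 that includes equality. At T2 its normalized counts were 24.55 and 13.89 in the same order. Of 132 genes removed for low counts over the series, 13 were above background at T21 in the 2 Gy × 5 sample alone. Among the 415 kept genes these were 47. The reverse held for 1 removed gene, Lta, with counts of 11 after 2 Gy × 5 and 25 after 0 Gy. Its ratio of 0.45 had an interval of 0.20 to 0.94. In 4 of the 13 the counting interval excluded equality: Batf3, a dendritic cell transcription factor gene, with counts of 19 and 6, Cxcr1, a chemokine receptor of neutrophils, with 30 and 11, Mbp with 24 and 10, and the unnamed identifier NM_008352.1 with 21 and 9.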

How the results depend on the processing

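The scaling set most of the counts. With median of ratios, 57 genes were at least 2-fold higher and 32 lower, with a median log2 fold of -0.0066 and Ptprc at 1.30. With total endogenous counts these were 56, 41, -0.0463 and 1.26, with Ptprc alone 4, 276, -1.31 and, by construction, 0.00, and with the pan-leukocyte list 15, 167, -0.79 and 0.52. Relative to Ptprc the list medians turned to -0.30 (pan-leukocyte), -0.92 (cytotoxic and NK), -0.89 (co-stimulatory and inhibitory ligand), -0.93 (monocyte and macrophage), -0.96 (type I interferon), -1.01 (interferon-gamma) and -0.60 (chemokine receptor), and relative to the pan-leukocyte list the last 6 were -0.41, -0.37, -0.42, -0.44, -0.49 and -0.0858. The positive controls gave 4 lower genes. Without the filter 4 genes were lower and the median was 0.60. Subtracting the negative-control mean gave 12 lower genes and a median of 0.85. Genes above background in both samples included 1 lower gene, as did those with an interval excluding equality. At 1.5-fold, 234 genes were higher and 16 lower; at 3-fold, 66 and 0. A pseudocount of 1 with no floor left all 4 values close to the main ones. Leaving out each housekeeping gene in turn gave 139 to 157 higher and 2 to 3 lower genes, medians of 0.68 to 0.78 and Ptprc at 1.99 to 2.08. No paired analysis was possible because each side is 1 sample. At this depth 78 kept genes were at background in at least 1 of the samples, so their folds are bounds or unmeasured.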
